A study of Mus musculus with 2 samples.

Results

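The 10 genes described here encode cathepsins, the proteases that digest proteins inside lysosomes: Ctsa, Ctsb, Ctsc, Ctsd, Ctsh, Ctsk, Ctsl, Ctss, Ctsw and Ctsz. They were taken by symbol from a table of 54532 genes, and all 10 were found. Transcripts were measured by RNA sequencing in cells sorted from mouse bone marrow as niche cells, the non-blood cells that support blood stem cells. The sort depleted cells with CD45, lineage antigens or CD71 on their surface and left out dead cells with Calcein AM and DAPI. Both groups were female CB6F1 mice (CD45.2+) that received 2 irradiation doses of 4.0 Gy and, after 4 hours, 5000000 marrow cells of B6.SJL mice (CD45.1+). The BMT group received nothing further. The aGVHD_V group was also given 60000000 spleen cells of C57BL/6 mice to develop acute graft-versus-host disease, in which donor T cells attack the host. The age of the mice, the number of mice behind a library, the time of sampling and the meaning of the V are unknown here, since no source used gives them. Each group is 1 library, called BMT and aGVHD_V below, so no difference below has a replicate check, and no test between the groups or p-value is given.

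Cathepsins are made as inactive precursors, carried to endosomes and lysosomes by the mannose 6-phosphate receptors, and activated there when a propeptide is removed. Most are cysteine proteases of the papain family (here Ctsb, Ctsc, Ctsh, Ctsk, Ctsl, Ctss, Ctsw and Ctsz). Ctsd is an aspartic protease and Ctsa a serine carboxypeptidase. In marrow, cathepsins are known for the removal of bone collagen by osteoclasts (cathepsin K), the trimming of the invariant chain of MHC class II (cathepsins S and L), the activation of granule proteases of neutrophils and killer cells (cathepsin C) and the general turnover of proteins in macrophages.

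The unit is FPKM, a fragment number divided by the length of the gene and the size of the library, so levels of different genes can be compared within a library. Over all genes 10869191 reads were recovered from BMT and 11299834 from aGVHD_V, and the cathepsins took 0.165% and 0.138% of them. Markers of mesenchymal stromal cells were lower in aGVHD_V by at least 2-fold for all 11 genes of the list (summed FPKM 686 against 29.3), with Lepr and Grem1 without reads there, and none was without reads in BMT. Ptprc, the gene of CD45, was at an FPKM of 9.28 and 7.85 despite the depletion, and Tfrc, the gene of CD71, at 160 and 269. Hemoglobin genes took 3.71% of the reads in BMT and 11.8% in aGVHD_V. Transcripts of blood cells were abundant in both, among them those of neutrophils, with a summed FPKM of 15710 against 21209 over 12 markers. Each value therefore describes all sequenced cells together, and in such bulk libraries fewer cells of a type and less RNA per cell cannot be told apart.

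The most abundant cathepsins differed little between the libraries, while Ctsk and Ctsl were lower and Ctsw was higher in aGVHD_V. Genes that reached an FPKM of 1 in either library were counted as measured, and a gene was called at least 2-fold different when its log2(FPKM + 1) differed by 1 or more. All 10 cathepsins were measured. Of these, 2 (Ctsk and Ctsl) were lower in aGVHD_V by at least 2-fold, against 19.4% of 12942 measured genes. A single cathepsin (Ctsw) was at least 2-fold higher, against 8.65% of measured genes, and 7 lay within 2-fold. These counts are thus near the share among all genes, of which 28.1% passed 2-fold either way. With equal FPKM sums the split was 4 lower and 1 higher, and with aGVHD_V scaled to the BMT sum 4 lower and none higher. The median difference of the cathepsins was -0.24, and that of all measured genes was -0.07.

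**Figure D1:**
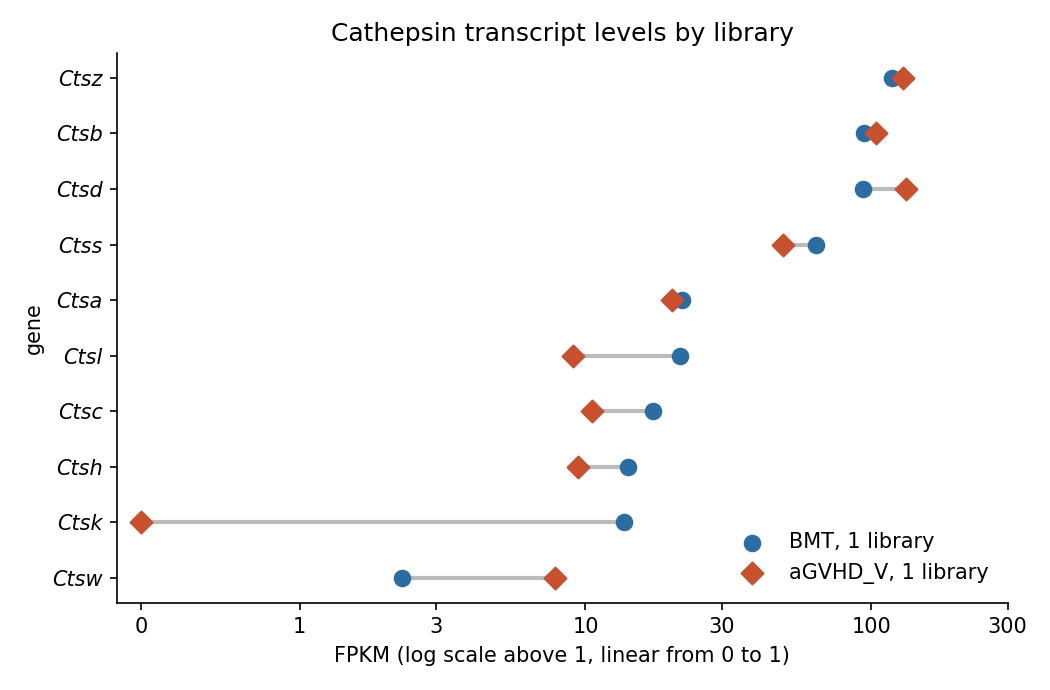
FPKM of each cathepsin gene in BMT (blue circles) and aGVHD_V (orange diamonds), on an axis that is logarithmic above 1, with a grey line joining the 2 values of a gene. The pairs of Ctsz, Ctsb, Ctsd, Ctss and Ctsa lie close together, whereas Ctsk goes from 13.7 to 0 and Ctsw from 2.28 to 7.84.

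The members were also compared with genes of like level, set by the higher FPKM of the 2 libraries. A gene can thus enter a level only through the library where it is high. Ctsh, Ctsk and Ctsl reached 10 only in BMT, and Ctsb and Ctsd reached 100 only in aGVHD_V. The directions within a level therefore depend in part on how the level was set. The 3 genes that reached an FPKM of 100 (Ctsb, Ctsd and Ctsz) had a median difference of 0.14, against 0.30 for all 584 genes at that level, and Ctsb and Ctsz changed sign under 4 of 11 alternatives and Ctsd under 2. None of the 3 passed 2-fold, against 2.91% lower and 12.2% higher (15.1% in all) of those genes. The 6 genes between 10 and 100 (Ctsa, Ctsc, Ctsh, Ctsk, Ctsl and Ctss) were all lower in aGVHD_V, with a median of -0.60, against 0.06 for 4854 genes at that level. Of those 6, 2 were at least 2-fold lower and none higher, against 8.2% and 6.47% (14.7% in all) of the 4854 genes. Ctsw was the only cathepsin whose higher value was under 10, where 27.9% of 7504 genes were at least 2-fold lower and 9.78% higher (37.7% in all).

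**Figure D2:**
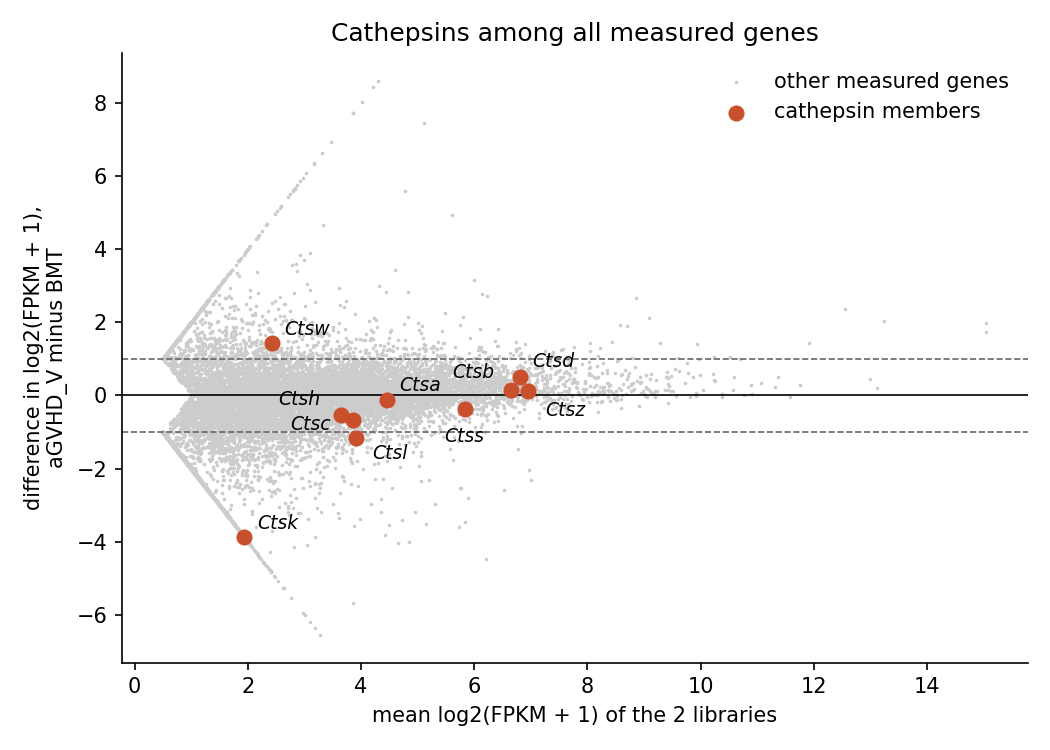
Difference in log2(FPKM + 1), aGVHD_V minus BMT, against the mean log2(FPKM + 1) of the libraries for all measured genes (grey) and the cathepsins (orange), with dashed lines at a difference of -1 and 1. Ctsk lies on the lower edge formed by genes without reads in aGVHD_V, Ctsl just under the lower dashed line, and Ctsw above the upper one.

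Detected genes with 4 or more reads most often had about 14 reads in BMT and 44 in aGVHD_V. Whether reads came in groups of that size was not tested, and smaller read numbers also occurred. Reads were divided by that number, as if they did, before the exact conditional binomial (Clopper-Pearson) 95% interval of a ratio was computed. Such a widened interval covers counting error only. The floor of 3 such counts was 42 reads in BMT and 132 reads in aGVHD_V. Of 9 cathepsins with reads in both libraries, the widened interval excluded a ratio of 1 for Ctsl and Ctsd and included it for 7.

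**Figure D3:**
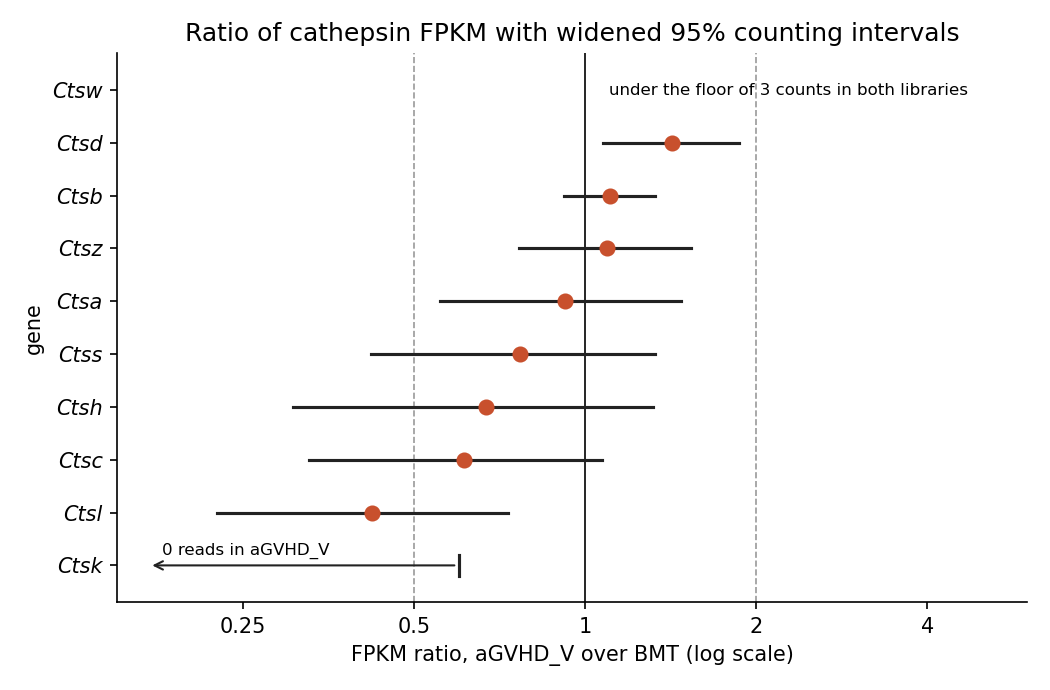
Ratio of the deposited FPKM, aGVHD_V over BMT, on a log axis (orange points) with widened 95% counting intervals (black lines), and dashed lines at a ratio of 0.5 and 2. The interval of Ctsl lies wholly below 1 (0.224 to 0.732) and that of Ctsd wholly above it (1.07 to 1.87); the arrow of Ctsk starts at its bound, and Ctsw, under the floor in both libraries, has no ratio.

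Cathepsins B, D and Z were the most abundant members and together made up 66.4% of the summed cathepsin FPKM in BMT and 77.5% in aGVHD_V. Ctsz, a carboxypeptidase also called cathepsin X (ENSMUSG00000016256, chromosome 2, 174427493 to 174439039, minus strand, GRCm38), had an FPKM of 118 in BMT and 129 in aGVHD_V. Ctsb, a broadly acting endopeptidase that can also remove dipeptides from the carboxyl end (ENSMUSG00000021939, chromosome 14, 63122462 to 63145923, plus strand), had 94.3 and 104. The ratios of Ctsz and Ctsb were 1.09 (widened interval 0.764 to 1.54) and 1.11 (0.916 to 1.33), so both widened intervals included 1. Without the widening the intervals were 1.03 to 1.16 and 1.07 to 1.14, which exclude it.

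Ctsd, the main aspartic protease of lysosomes (ENSMUSG00000007891, chromosome 7, 142375911 to 142388038, minus strand), had an FPKM of 93.3 in BMT and 133 in aGVHD_V. It was 1.42-fold higher (widened interval 1.07 to 1.87) and moved from the third to the first place among the cathepsins. This direction rests on the deposited scale: with the aGVHD_V library scaled to the BMT sum of FPKM, the differences of Ctsb, Ctsd and Ctsz became -0.43, -0.07 and -0.45 on the log2 scale. Ctsd ranked 464th of 15477 genes with reads in BMT and 382nd of 12310 in aGVHD_V.

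Some reads of these genes may belong to overlapping genes, since whether the counting used strand is not given. The span of Ctsb overlaps 774 bases of Fdft1 (a gene of sterol synthesis) on the opposite strand, and Ctsd shares 37.1% of the 31-base words of its transcript with the read-through gene Gm49369, which is listed at 0 in both libraries. Fdft1 itself was at an FPKM of 4.16 and 7.88, far under Ctsb.

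Cathepsin L was lower in aGVHD_V. Ctsl encodes an endopeptidase that matures many lysosomal proteins (ENSMUSG00000021477, chromosome 13, 64359337 to 64370890, minus strand). It had an FPKM of 21.4 on 1686 reads in BMT and of 9.02 on 624 reads in aGVHD_V, 2.38-fold lower (widened interval 1.37 to 4.46). Its rank was 2542nd in BMT and 5002nd in aGVHD_V, the top 16.4% and the top 40.6% of detected genes. Ratios between genes within a library do not depend on how that library is scaled. Ctsb had 4.40 times the FPKM of Ctsl in BMT and 11.6 times in aGVHD_V, and Ctsd had 4.35 times and 14.7 times. Ctsl was under the threshold with a pseudocount of 5 (difference -0.91). Of its 31-base words, 29.9% also occur in transcripts of other genes, mostly of the antisense gene Gm47123, which is listed at 0 in both libraries.

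Lysosomal genes are known targets of TFEB and its relatives TFE3 and MITF, which bind an element with the core CACGTG. The stretches of 30 bases around this core (in capitals) are shown because they compare Ctsl with members of the family that were within 2-fold. They come from RefSeq promoters of GRCm38.p6, which run from 250 bases before to 50 after a gene's start. Entries were matched for 7 of the 10 genes (8 promoters, with 2 for Ctsa), and none for Ctsb, Ctsh and Ctsw. The motif was chosen after the sequences had been read.
Ctsl, chr13:64370739-64370768, minus strand: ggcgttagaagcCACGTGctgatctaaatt
Ctsd, chr7:142388048-142388077, minus strand: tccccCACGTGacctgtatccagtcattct
Ctsd, chr7:142387908-142387937, minus strand: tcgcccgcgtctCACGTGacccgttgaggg
Ctsa, chr2:164833749-164833778, plus strand: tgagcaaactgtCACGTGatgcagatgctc
Ctsa, chr2:164833766-164833795, plus strand: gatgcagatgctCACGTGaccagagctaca
The core, which reads the same on both strands, was found in 3 of the 8 cathepsin promoters and in 7.15% of 32851 promoters of the same length. It begins 236 bases before the start in Ctsl, 245 and 98 bases before it in Ctsd, and 12 bases before it in the downstream Ctsa promoter, which also holds it 6 bases after the start. Thus genes with this core were found both at least 2-fold lower (Ctsl) and within 2-fold (Ctsa, Ctsd). A match of letters is not evidence of binding. The factors themselves were low: Tfe3 had an FPKM of 7.35 and 8.77, Tfeb of 1.64 and 1.31, and the related Tfec of 1.55 and 1.27. All 3 lay within 2-fold, and Mitf stayed under an FPKM of 1 in both libraries.

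Cathepsins S and K are neighbours on chromosome 3, on the plus strand with 17.4 kb and no other listed gene between them. Ctsk, the collagen-degrading protease of osteoclasts that fibroblasts also make (ENSMUSG00000028111, 95499256 to 95509362), had an FPKM of 13.7 on 251 reads in BMT. It had no reads in aGVHD_V, which at the floor is at least 1.67-fold lower. With that floor in place of 0 its log2 difference was -0.68, short of the 2-fold threshold. Ctss, an endopeptidase of antigen-presenting cells that stays active at neutral pH (ENSMUSG00000038642, 95526786 to 95556403), had an FPKM of 64.1 on 1055 reads and 49.2 on 713 reads. Its ratio of 0.769 had a widened interval that included 1 (0.420 to 1.33). As a fold lower this interval is 0.753 to 2.38, which holds the bound of Ctsk. A difference between the neighbours is therefore not shown. Neither gene shared a 31-base word with a transcript of another gene.

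The 250 bases before each start are shown to let the neighbours be compared. Capitals mark a pair of GAAA repeats with any 2 bases between them, an element bound by interferon regulatory factors.
Ctsk, chr3:95498960-95499209, plus strand: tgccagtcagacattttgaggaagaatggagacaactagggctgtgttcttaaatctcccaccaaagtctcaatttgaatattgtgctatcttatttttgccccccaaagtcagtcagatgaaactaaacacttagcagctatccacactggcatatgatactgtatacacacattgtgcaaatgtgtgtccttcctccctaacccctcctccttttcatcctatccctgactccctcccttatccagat
Ctss, chr3:95526536-95526785, plus strand: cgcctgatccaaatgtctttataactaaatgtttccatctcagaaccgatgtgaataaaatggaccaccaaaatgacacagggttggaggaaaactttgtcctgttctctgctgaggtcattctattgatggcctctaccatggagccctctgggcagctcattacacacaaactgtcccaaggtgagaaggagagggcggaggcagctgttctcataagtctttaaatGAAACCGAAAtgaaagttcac
Ctss has the interferon element 21 bases before its start, and these letters are not in the Ctsk window on either strand. The element occurs in 1 of the 8 cathepsin promoters and in 3.44% of all promoters. GAGGAAGT, a site of the ETS factor PU.1 of myeloid and B cells, was also searched on both strands. It was found across the start of Ctss and 151 bases before that of Ctsc, and in 3.20% of all promoters. In the lines below its reverse complement is in capitals.
Ctss, chr3:95526773-95526802, plus strand: aatgaaagttcACTTCCTCattgtggatgc
Ctsc, chr7:88277923-88277952, plus strand: gtcactaactaACTTCCTCaggccacctcg
Both genes with this site were lower in aGVHD_V by less than 2-fold. These motifs, too, were chosen after the sequences had been read.

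Cell markers that moved beside Ctsk went both ways. Mesenchymal stromal markers were all lower, as given above, and among 12 measured markers of osteoblasts and fibroblasts 11 were lower by 2-fold or more, with a summed FPKM of 181 against 21.3. That count was 8 with genes without reads at their floor and 7 with a pseudocount of 5. Of 11 endothelial markers 9 were lower, and 7 with the floor, with a summed FPKM of 108 against 25.2, and Cdh5, Kdr, Tek and Cldn5 were at 0 in aGVHD_V. In the list of osteoblast and fibroblast markers Sp7, Ibsp and Fap were at 0 in aGVHD_V, and Bglap, Pdpn and S100a4 in both libraries. Osteoclast markers gave fewer values. Of 10 listed, 4 were measured, with 2 at least 2-fold higher and none lower in aGVHD_V, and a summed FPKM of 109 against 165. The osteoclast fusion genes Dcstamp and Ocstamp and the receptors Calcr, Tnfrsf11a and Oscar were at 0 in both libraries, and the pump subunit Atp6v0d2 was at 0 in aGVHD_V. Mmp9, a gelatinase also abundant in neutrophils, had the highest level of that list, at 82.2 and 97.2. The 2 higher genes were Acp5 and Itgb3. Itgb3 is also on the list of megakaryocyte markers, of which 5 of 9 were higher and 3 lower, with a summed FPKM of 92.5 against 284. With the aGVHD_V library scaled to the BMT sum of FPKM, no osteoclast marker was 2-fold higher, and with equal FPKM sums their median changed sign, from 0.72 to -0.17. The part of these cell types in the difference of Ctsk was not tested.

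Beside Ctss, genes of MHC class II presentation were mostly within 2-fold. Of 8 listed, 7 were measured, and 1 of them was at least 2-fold higher, none was lower. Over all measured genes 8.65% were higher and 19.4% lower, shares that also serve for the markers below. Cd74, the invariant chain that cathepsin S cleaves, had an FPKM of 193 in BMT and 153 in aGVHD_V. H2-DMb1, a chain of the peptide exchange factor, was higher at 5.28 against 14.9, with a widened interval of the ratio that included 1 (0.732 to 10.3), while its partner H2-DMa was at 24.6 against 12.5. Of 16 macrophage and monocyte markers, all measured and none at 0, 2 were lower, 1 was higher and 13 lay within 2-fold, with a summed FPKM of 1330 against 1407 (ratio 1.06, or 0.709 with equal sums). The lower count became 6 with scaling to the BMT sum and 8 with equal sums, where 29.1% and 38.4% of all measured genes were lower. The higher gene, Ms4a7, had 9 and 102 reads, under the floor in both libraries. The lower genes were Vcam1 (38.4 against 11.9, widened interval of the ratio 0.199 to 0.466) and Mrc1 (8.22 against 2.83, 0.0964 to 0.910). These genes were named after their values were seen. Most of the summed FPKM of the macrophage and monocyte markers was Lyz2, the lysozyme of macrophages and neutrophils (942 against 992). The part of these cells in the level of Ctss was not tested.

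The aminopeptidases were lower by less than 2-fold. Ctsc, or dipeptidyl peptidase I, activates granule serine proteases (ENSMUSG00000030560, chromosome 7, 88278085 to 88310888, plus strand). It had an FPKM of 17.2 on 1211 reads in BMT and 10.5 on 651 reads in aGVHD_V. Ctsh, an aminopeptidase of lysosomes (ENSMUSG00000032359, chromosome 9, 90054152 to 90076089, plus strand), had 14.0 on 766 reads and 9.38 on 450 reads. The ratios were 0.611 (widened interval 0.327 to 1.07) and 0.668 (0.306 to 1.32), so both widened intervals included 1. Without the widening the intervals were 0.555 to 0.673 and 0.593 to 0.752, which exclude it. With the aGVHD_V library scaled to the BMT sum of FPKM, or with equal FPKM sums, both genes passed the 2-fold threshold.

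The granule genes listed beside Ctsc as its substrates were mostly higher in aGVHD_V on the deposited scale. Their median difference was 0.88, and 0.31 with the aGVHD_V library scaled to the BMT sum of FPKM. Of 10 listed, 8 were measured, of which 4 were at least 2-fold higher in aGVHD_V and none was lower. The share of higher genes among all measured genes was 8.65%. Cma1 and Mcpt4, proteases of mast cells, were at 0 in both libraries. The list includes Nkg7, a granule membrane protein that is no protease and was among the 4. The neutrophil elastase gene Elane had an FPKM of 360 in BMT and 365 in aGVHD_V. Ctsg, cathepsin G of neutrophils and a serine protease more abundant than any of the 10 cathepsins, was at 169 and 156 (ratio 0.925, widened interval 0.633 to 1.32). Gzmb, granzyme B of killer cells, was 2.99-fold higher (13.8 against 41.3, widened interval 1.38 to 6.39), and the basophil protease Mcpt8 was 3.86-fold higher (16.5 against 63.7, interval 1.75 to 8.54). Gzmk, granzyme K, was at 1.13 against 7.56 on 19 and 112 reads, under the floor in both libraries. With the aGVHD_V library scaled to the BMT sum of FPKM, 2 of these genes stayed at least 2-fold higher.

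Ctsa, protective protein or carboxypeptidase A, holds beta-galactosidase and neuraminidase 1 in a lysosomal complex (ENSMUSG00000017760, chromosome 2, 164832873 to 164841032, plus strand). It had an FPKM of 21.7 on 1243 reads in BMT and 20.1 on 1008 reads in aGVHD_V, a ratio of 0.922 (widened interval 0.556 to 1.47). Its partners, named after their values were seen, were lower by less than 2-fold on the log2(FPKM + 1) scale, with intervals that included a ratio of 1: Glb1 was at 8.50 against 4.12, and Neu1 at 19.1 against 12.3. The span of Ctsa overlaps 1515 bases of Pltp, a lipid transfer gene on the opposite strand, which had 132 reads in BMT but 0 in aGVHD_V.

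Cathepsin W, a protease of natural killer and cytotoxic T cells, was higher in aGVHD_V but rested on few reads. Ctsw (ENSMUSG00000024910, chromosome 19, 5465240 to 5468498, minus strand) had an FPKM of 2.28 on 34 reads in BMT and 7.84 on 103 reads in aGVHD_V. Both numbers lay under the floor, so no fold is given. The gene ranked 9857th of the detected genes in BMT and 5429th in aGVHD_V. It stayed at least 2-fold higher under 9 of 11 alternative settings and lay under that threshold with a pseudocount of 5 (difference 0.82) and with the aGVHD_V library scaled to the BMT sum of FPKM (0.93).

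Markers of natural killer and cytotoxic T cells went both ways. Of 16 listed, 14 were measured, of which 4 were at least 2-fold higher in aGVHD_V, 2 were lower and 8 lay within 2-fold, with a summed FPKM of 133 against 260. Among all measured genes 8.65% were higher and 19.4% lower. The 4 became 2 with either scaling to FPKM sums and 1 with a pseudocount of 5, and the 2 lower genes became 0 with genes without reads at their floor. Of the 4 higher genes, Cd3d was under the floor in both libraries and Prf1 in BMT. Tbx21, a transcription factor of these cells, and the receptor gene Klrd1 were at 0 in aGVHD_V, Klrb1c was at 0 in BMT, and Ncr1, a receptor of natural killer cells, was at 0 in both. Ccl5, a chemokine of T cells, had the highest level, at 46.8 and 88.9. The list shares Gzma, Gzmb and Nkg7 with the granule genes. The part of these cells in the difference of Ctsw was not tested.

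Summed over all 10 genes, the cathepsin FPKM was 460 in BMT and 472 in aGVHD_V. The total was thus nearly equal on the deposited scale (ratio 1.03), but lower (0.687) with the libraries scaled to equal FPKM sums. In the BMT library the order of levels was Ctsz, Ctsb, Ctsd, Ctss, Ctsa, Ctsl, Ctsc, Ctsh, Ctsk and Ctsw. In the aGVHD_V library it was Ctsd, Ctsz, Ctsb, Ctss, Ctsa, Ctsc, Ctsh, Ctsl, Ctsw and Ctsk. With 1 library in a group there is no spread to say which neighbours in these orders differ. The share of the sum went from 20.3% to 28.1% for Ctsd, and Ctsl went from 4.66% to 1.91%, Ctsk from 2.98% to 0% and Ctss from 13.9% to 10.4%.

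Most cathepsin genes outside the 10 were not detected. Of 13 listed, 9 had no reads in either library (Ctsj, Ctsm, Ctsq, Ctsr, Cts3, Cts6, Cts7, Cts8 and Ctsll3, most of them known from placenta). Ctse, an aspartic protease of blood cells, was more abundant than any of the 10, at an FPKM of 233 in BMT and 332 in aGVHD_V (ratio 1.43, widened interval 1.23 to 1.65). Ctsf was at least 2-fold higher on the log2(FPKM + 1) scale, at 5.43 against 14.6, with an interval that included a ratio of 1 (0.858 to 8.04). Ctso was at 2.29 against 4.43. The summed FPKM of the list was 410 against 508 as deposited, a ratio of 1.24 that became 0.830 with equal FPKM sums.

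The inhibitors of cysteine cathepsins went both ways. Of 17 matched genes 13 were measured, of which 2 were lower in aGVHD_V by at least 2-fold, 4 were higher and the other 7 passed neither threshold. Among all measured genes 19.4% were lower and 8.65% higher. Of the 4 higher inhibitors, Stfa2 and Stfa3 were under the floor in both libraries and BC100530 in BMT. The median of the inhibitors, 0.44, became -0.06 with the aGVHD_V library scaled to the BMT sum of FPKM. Cst3, or cystatin C, the main secreted inhibitor and the most abundant of the list, was 1.53-fold lower (173 against 113, widened interval 1.06 to 2.26). Kng1, a kininogen with cystatin domains, had 420 reads (FPKM 10.7) in BMT but 0 in aGVHD_V, a difference of 2.80-fold or more at the floor. The other lower gene was its relative Kng2, at 16.8 against 3.16, under the floor in aGVHD_V. Ctla2a, whose product resembles the propeptide of cathepsin L and inhibits that enzyme, was 3.71-fold higher (5.67 against 21.0, widened interval 1.43 to 9.67), though 40.2% of its 31-base words occur in other genes. Kng2 and Ctla2a were named after their values were seen. The summed FPKM of the cysteine cathepsins was 1.99 times that of Cst3 in BMT and 2.82 times in aGVHD_V. Against Cst3 and Cstb together it was 1.63 times and 1.97 times. Cstb, the cytosolic cystatin B, was at 38.3 and 49.0.

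Other genes of the lysosome were mostly within 2-fold on the deposited scale, less so on others. On the log2(FPKM + 1) scale all 12 genes of processing and sorting lay within 2-fold (median -0.37), among them Lgmn and both mannose 6-phosphate receptors. However, 5 of the 12 were at least 2-fold lower with aGVHD_V scaled to the BMT sum (median -0.82) and 5 with equal sums (-0.94). Psap, the precursor of the saposins, had the highest level (322 against 290), and Gnptab, which makes the mannose 6-phosphate tag, was closest to the threshold (14.5 against 6.90). Gnptab was 2.11-fold lower by FPKM alone (widened interval of the ratio 0.217 to 0.927). Of 29 lysosomal hydrolases outside the cathepsins, all measured, 6 were lower in aGVHD_V by at least 2-fold and none higher, where 19.4% of all measured genes were lower. Their median was -0.56. That count is 4 with genes without reads at their floor and 15 with the aGVHD_V library scaled to the BMT sum of FPKM. Gaa, the acid alpha-glucosidase, was 3.59-fold lower (24.1 against 6.71, interval 1.74 to 8.67). Naglu and Sgsh, enzymes of heparan sulfate breakdown, had 264 and 133 reads in BMT but 0 in aGVHD_V. All 15 measured lysosomal membrane genes lay within 2-fold on the log2(FPKM + 1) scale (median -0.06). By FPKM alone Atp6v1h was 2.02-fold higher (widened interval 1.12 to 3.56). Lamp1 was the most abundant at 117 against 94.0. Of these membrane genes 2 were lower with scaling to the BMT sum and 3 with equal sums.

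**Figure D4:**
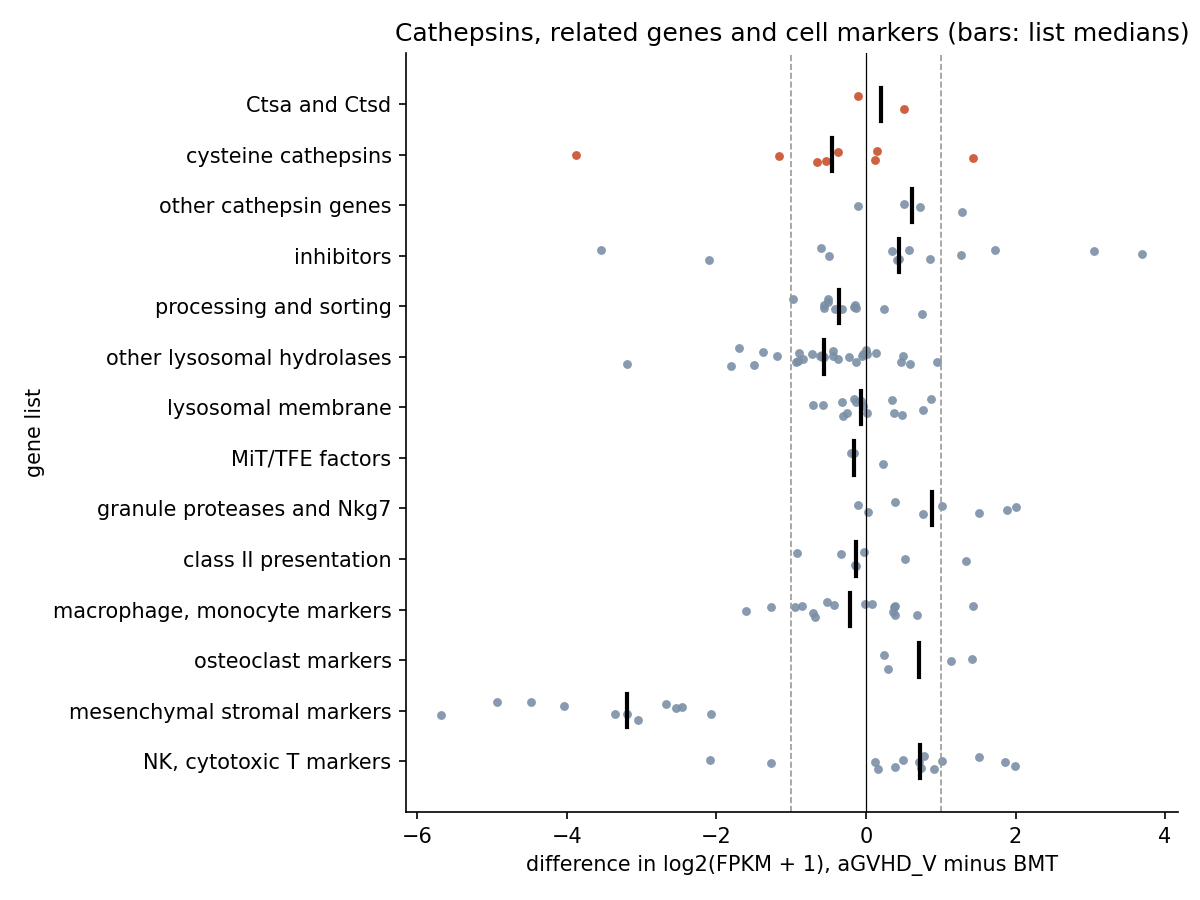
Difference in log2(FPKM + 1), aGVHD_V minus BMT, of each measured gene (points) in the cathepsins (orange) and in lists of related genes and cell markers (grey), with a black bar at each median and dashed lines at -1 and 1. The medians are -0.45 for the cysteine cathepsins, -0.56 for other hydrolases, 0.72 for natural killer and cytotoxic T cell markers and -3.20 for mesenchymal stromal markers; with the aGVHD_V library scaled to the BMT sum of FPKM the median of the inhibitors changes sign, from 0.44 to -0.06.

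The scaling of the libraries moved all genes together and with them several cathepsins. The deposited FPKM summed to 340171 in BMT and 507958 in aGVHD_V. Scaling the aGVHD_V library to the BMT sum gave the median gene a log2 shift of -0.50, and the cathepsins then counted 4 lower (Ctsc, Ctsh, Ctsk and Ctsl) and none higher. With equal sums the median gene moved by -0.55, and 4 were lower and 1 (Ctsw) higher. Ctsa, Ctsc, Ctsh, Ctsk, Ctsl and Ctss were lower and Ctsw higher in aGVHD_V under all 11 alternatives, whereas Ctsb and Ctsz kept their sign under 7 and Ctsd under 9. Pseudocounts and filters cannot change a sign, nor can the floor for a gene with reads in both libraries. Ctsk, without reads in aGVHD_V, is lower under any scaling. Only scaling to equal upper quartiles raised the aGVHD_V values, by 0.03 for the median gene. The lower genes thus had little room to change sign.

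**Figure D5:**
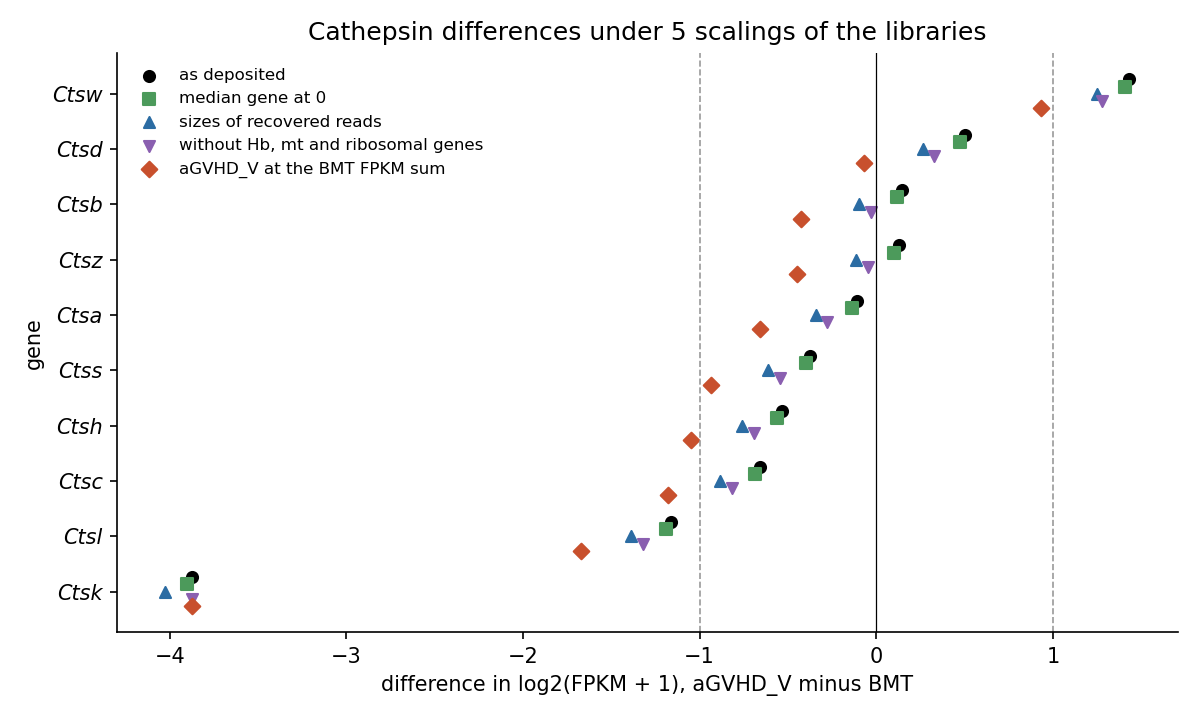
Difference in log2(FPKM + 1), aGVHD_V minus BMT, of each cathepsin with the libraries as deposited (black) and under 4 other scalings (colours), with dashed lines at -1 and 1. Ctsb and Ctsz cross 0 under 3 of the scalings shown and Ctsd only with the aGVHD_V library at the BMT FPKM sum (-0.07), whereas Ctsk and Ctsl stay below -1 in each.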

How the data were processed

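RNA sequencing values of 1 BMT and 1 aGVHD_V library were used, assigned from their labels. The authors deposited FPKM per gene, per the file headers. As tools and builds, edgeR 3.18.1, GRCm38 and mm10 stand in the submitters' processing notes. For aligner, counter and strand setting, the sources used here give nothing. The table has 1 column of values that no label of a sample fits, and it was left out. FPKM times gene length gave whole multiples of 1 step per library for 100% of values (tolerance 0.05), so reads could be recovered. The steps correspond to library sizes 1.12 and 0.944 times the recovered reads, so the deposited values were scaled. Differences are log2(FPKM + 1), which understates low genes. A symbol listed more than once was represented by its entry with most reads, and 248 of 251 listed symbols were matched. The modal read number was the peak of a moving window of 7 values, from 4 reads up. All cathepsins were named. The rule for related lists was up to 3 genes with the largest difference and the most abundant gene. For marker lists it was the genes at 0 and the most abundant. The rule was not followed throughout. Cxcl12, Spp1, Plvap and S100a9, each the most abundant of a marker list, and Gp1ba and Treml1, at 0 in aGVHD_V, are among those not described. Members and lists were chosen with earlier results of these data known. With 1 library per group no test was made, and 11 alternative settings were tried. Read recovery and intervals computed without the widening were tested on simulated data, in which reads were drawn without groups. The widened intervals were not tested in this way. Python 3.11.15, pandas 2.3.3 and scipy 1.17.1 were used.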

Additional observations from a re-analysis of the deposited data

How the results depend on the processing

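No paired analysis was possible because each group is 1 library, and for the same reason no library could be left out. Of 11 alternatives, the number of cathepsins lower in aGVHD_V by at least 2-fold (2) changed under 4. It was 4 with equal FPKM sums and with the aGVHD_V library scaled to the BMT sum, 1 (Ctsk) with a pseudocount of 5 and 1 (Ctsl) where a gene lacking reads was set to its floor. The number at least 2-fold higher (1) became 0 with a pseudocount of 5 and with scaling to the BMT sum. The median difference (-0.24) became -0.82 with equal sums, -0.80 with scaling to the BMT sum, -0.41 without hemoglobin, mitochondrial and ribosomal protein genes, and -0.48 with library sizes of all recovered reads. Under these 4 settings the ratio of summed cathepsin FPKM (1.03) became 0.687, 0.687, 0.908 and 0.867. The median gene moved by -0.15 and -0.21 under the last 2 of them. Over all measured genes, 2512 were lower and 1119 higher. These became 3052 and 1478 with a pseudocount of 0.1, 503 and 356 with a pseudocount of 5, 859 and 616 with an FPKM minimum of 5, 5679 and 900 with equal sums, 3685 and 547 with scaling to the BMT sum, and 987 and 754 with the floor. The floor, which comes from the most frequent read number and not from the read total, bears on Ctsw and Ctsk: Ctsw was under the floor in both libraries and Ctsk in aGVHD_V.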

Other observations

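The stefin A genes encode small cytosolic inhibitors of cysteine cathepsins and are known from neutrophils. Stfa3 had an FPKM of 1.20 on 6 reads in BMT and 27.5 on 121 reads in aGVHD_V, and Stfa2 of 6.13 on 35 reads and 16.1 on 81 reads. Both genes were under the floor in both libraries, so no fold is given. The related gene BC100530 was at 1.88 on 18 reads, under the floor in BMT, against 22.8 on 192 reads. Its ratio of 12.1 (widened 95% counting interval 1.47 to 299) therefore rests on few reads in BMT. Stfa1 (12.2 against 16.5) and Stfa2l1 (13.6 against 25.3) lay within 2-fold on the log2(FPKM + 1) scale. The 12 neutrophil markers all lay within 2-fold, with a summed FPKM of 15710 in BMT and 21209 in aGVHD_V. Their part in the stefin A values was not tested. The transcripts are alike: 66.9% of the 31-base words of BC100530, 50.4% of those of Stfa1, 41.6% of those of Stfa2l1 and 33.3% of those of Stfa2 occur in other genes, and none of those of Stfa3. The division of reads among the first 4 is therefore uncertain. Stfa1, Stfa2 and Stfa2l1 were named after their values were seen.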
